A study of Mus musculus with 4 samples.

Results

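The integrated stress response genes described here are 10 mouse genes, namely Trib3, Ddit3, Atf3, Chac1, Asns, Slc7a3, Phgdh, Psat1, Shmt2 and Mthfd2. They were measured by every probe set, the group of short probes that reads 1 transcript, which the annotation of the array assigns to 1 of these symbols and to no other gene. All 10 genes were found, with 21 probe sets of the 45037 tested. The 4 arrays hold RNA of whole embryos labelled as embryonic day (E) 9.0. Of these, 2 were homozygous mutants for the orphan nuclear receptor gene Nr6a1, formerly Gcnf (labelled Gcnf-/-, here Nr6a1-/-), and 2 were wildtype (labelled wt). The mutant line is a germline knockout described earlier, so no Cre driver or agent was used. The study's methods keep the line on a background they write as C56BL/6 and give a collection window that reaches past the labelled stage, so a difference in age between the genotypes cannot be told apart from genotype.

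The integrated stress response is a shared answer of cells to amino acid shortage, unfolded protein in the endoplasmic reticulum (ER), haem shortage and viral RNA. Each of these activates a kinase that phosphorylates the translation factor eIF2, which lowers protein synthesis at large while allowing translation of the transcription factor Atf4. Atf4 pairs with C/EBP proteins and raises genes for amino acid uptake and synthesis, for serine and one-carbon metabolism, and for feedback and cell death. Because Atf4 itself is controlled mainly at translation, the RNA of its target genes is the usual readout on an expression array.

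Short promoter stretches are shown first because Atf4 and C/EBP proteins are known to bind a composite DNA element in several of these genes. The letters TGATGNAA, the core of that C/EBP-ATF response element, were searched on both strands from 250 bases before to 50 bases after each annotated start site. RefSeq sequences of build GRCm38.p6 held such windows for 9 of the 10 members, with Slc7a3 as the member without one, and 4 of these 9 genes held the letters. Counted by window, 4 of 10 member windows held them, against 3.97% of all 32851 windows. The capitals below mark the matched letters within 30 bases read along the strand of the gene. The matches of Trib3, Chac1 and Atf3 lie on the opposite strand, so their capitals are the reverse complement.
Trib3, chr2:152344028-152344057, minus strand, match from 15 after the start: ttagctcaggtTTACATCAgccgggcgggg
Chac1, chr2:119351038-119351067, plus strand, match from -193: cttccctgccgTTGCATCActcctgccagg
Asns, chr6:7693214-7693243, minus strand, match from -23: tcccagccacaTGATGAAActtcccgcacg
Atf3, chr1:191183425-191183454, minus strand, match from -110: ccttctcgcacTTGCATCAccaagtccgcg
Psat1 has more than 1 window, which makes 10 member windows. The cAMP response element TGACGTCA, which is its own reverse complement, was in 0 of the 10 and in 1.79% of all windows, and the ER stress response element was in 0 and in 0.119%, so no match shown overlaps another searched motif. A match is a description of letters and not a measured binding site.

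The genotypes did not overlap, with the mutants higher, for Trib3, Chac1, Slc7a3, Ddit3 and Asns, by 2.40-, 1.99-, 1.68-, 1.61- and 1.41-fold in the brightest probe set of each gene. The 4 enzymes of serine and one-carbon metabolism and Atf3 lay slightly below wildtype, by at most 1.13-fold in the brightest probe sets. In limma with Benjamini-Hochberg adjustment over all probe sets, only Slc7a3 passed an adjusted p of 0.05, and it was short of 2-fold. With both thresholds applied (adjusted p up to 0.05, change of 2-fold or more) 0 of the 21 probe sets were called, against 0.382% of all those tested. At an unadjusted p under 0.05, 8 of 21 were higher and 0 lower, against 9.83% higher and 10.3% lower among all probe sets. The same 8 had both mutants above both wildtype embryos, against 23.5% of all. These 8 belong to 5 genes and are not independent. The members were chosen with earlier results of these data known, so the shares describe the list and do not test it. For a single gene, the smallest two-sided p that an exact permutation of 2 against 2 arrays allows is 0.333.

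**Figure D1:**
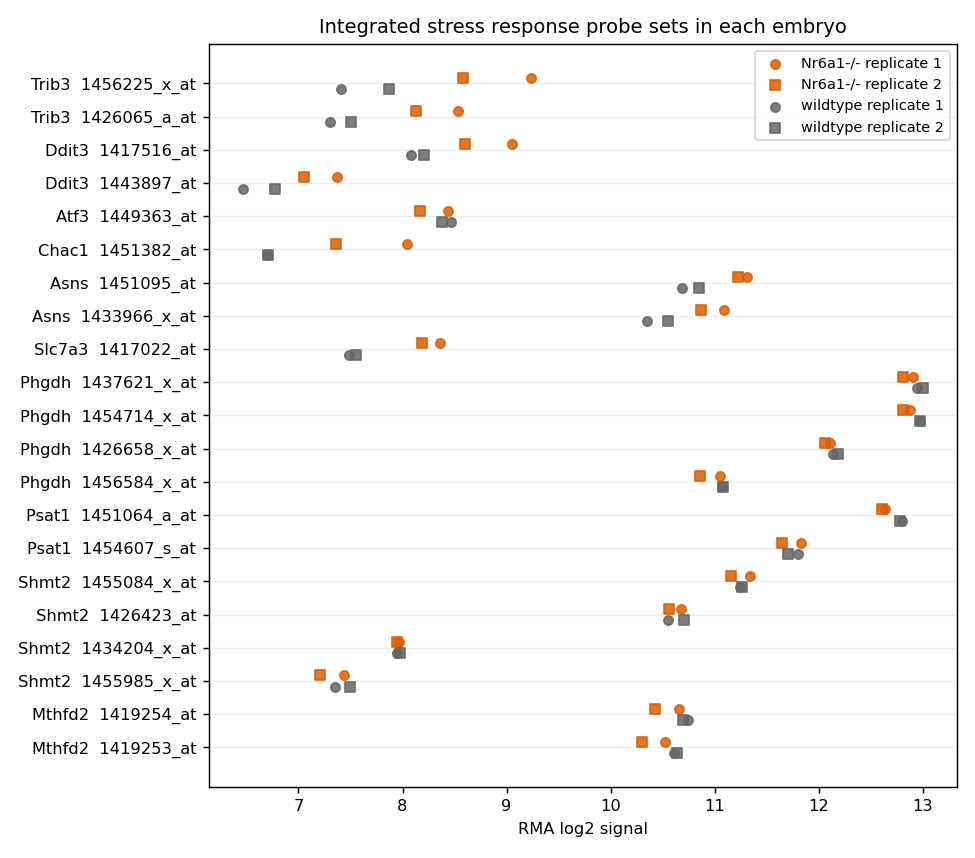
RMA log2 signal (horizontal axis) of the 21 probe sets (rows) in each embryo, with Nr6a1-/- in orange and wildtype in grey, replicate 1 as circles and replicate 2 as squares. All 8 probe sets of Trib3, Ddit3, Chac1, Asns and Slc7a3 have both mutants to the right of both wildtype embryos; levels are not comparable between rows.

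Trib3 encodes a pseudokinase induced by Atf4 and Ddit3 that restrains Akt and feeds back on Atf4, and it carried the largest difference of the members. Its brightest probe set read 9.23 and 8.58 on the log2 scale in Nr6a1-/- embryos, against 7.41 and 7.87 in wildtype. The log2 fold change was 1.26 ± 0.26 (error as limma's moderated SE, 2 embryos a genotype, adjusted p = 0.0981). Of the 18193 genes, each taken by its brightest probe set, 65 (0.357%) had a log2 fold change as high or higher. The other Trib3 probe set read 8.53 and 8.13 in mutants, against 7.31 and 7.51 in wildtype, a log2 fold change of 0.92 ± 0.15 (adjusted p = 0.0722). Both probe sets thus showed no overlap between the genotypes and the same order of the 4 embryos. With dim probe sets left out of the adjustment, both passed (adjusted p = 0.0468 and 0.0336), as they did with an intensity trend in the variance (adjusted p = 0.0363 and 0.0245). In those settings alone the brightest Trib3 probe set met both thresholds.

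Chac1 encodes an enzyme that breaks down glutathione, the main thiol antioxidant of the cell, and is among the Atf4 target genes most used as a marker of the response. It read 8.04 and 7.36 in Nr6a1-/- embryos, against 6.70 and 6.71 in wildtype. The wildtype embryos were nearly the same, whereas the mutants differed by 0.68. The log2 fold change was 0.99 ± 0.22 (adjusted p = 0.110), reached or exceeded by 0.671% of genes. It was 0.65 without mutant replicate 1 and 1.33 without mutant replicate 2, and in the intensity trend setting its adjusted p was 0.0474.

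Ddit3 encodes Chop, a transcription factor linked to cell death under prolonged stress. Its brightest probe set read 9.05 and 8.60 in Nr6a1-/- embryos, against 8.08 and 8.20 in wildtype (log2 fold change 0.69 ± 0.16, adjusted p = 0.116). The other probe set read 7.37 and 7.05 in mutants, against 6.47 and 6.77 in wildtype (log2 fold change 0.59 ± 0.15, adjusted p = 0.130). Both mutants were above both wildtype embryos in each. Neither probe set passed in any of the 10 alternative settings, and without mutant replicate 1 the brightest read 0.46.

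Atf3 encodes a stress-induced factor of the same protein family, which is also an immediate early gene, and it did not share this pattern. It read 8.44 and 8.17 in Nr6a1-/- embryos, against 8.46 and 8.38 in wildtype, so that mutant replicate 1 lay within the wildtype range and mutant replicate 2 below it. The log2 fold change was -0.11 ± 0.11 (adjusted p = 0.636), and a single probe set reads the gene.

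Asns and Slc7a3 supply amino acids. Asns, asparagine synthetase, read 11.30 and 11.22 in Nr6a1-/- embryos, against 10.68 and 10.85 in wildtype, by its brightest probe set. The log2 fold change was 0.50 ± 0.09 (adjusted p = 0.0796). The other Asns probe set read 11.08 and 10.87 in mutants, against 10.34 and 10.55 in wildtype (log2 fold change 0.53 ± 0.11, adjusted p = 0.105). Both gave separate genotypes and changes of nearly the same size. Both passed with dim probe sets left out (adjusted p = 0.0320 and 0.0470) and with an intensity trend (adjusted p = 0.0180 and 0.0348), at changes short of 2-fold.

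Slc7a3 encodes a carrier of cationic amino acids such as arginine and lysine, and lies on the X chromosome. It read 8.36 and 8.19 in Nr6a1-/- embryos, against 7.49 and 7.55 in wildtype. Its log2 fold change of 0.75 ± 0.09 (adjusted p = 0.0427) was the only one of the 21 to pass the adjusted p of 0.05, against 0.719% of all probe sets higher at that threshold. Xist, the RNA of the inactive X chromosome, read 6.44 and 6.61 in the mutants, against 13.11 and 6.68 in wildtype. This marks wildtype replicate 1 as the only female embryo, so the genotypes differed in sex make-up. For Slc7a3 the female minus the male wildtype embryo was -0.066. Without the female embryo the log2 fold change was 0.72 (adjusted p = 0.301). It did not pass the adjusted p of 0.05 with any 1 array left out, from fewer samples. Nor did it pass in limma with the replicate number as a block (adjusted p = 0.177). The fold change stayed between 0.67 and 0.83 on the log2 scale.

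**Figure D2:**
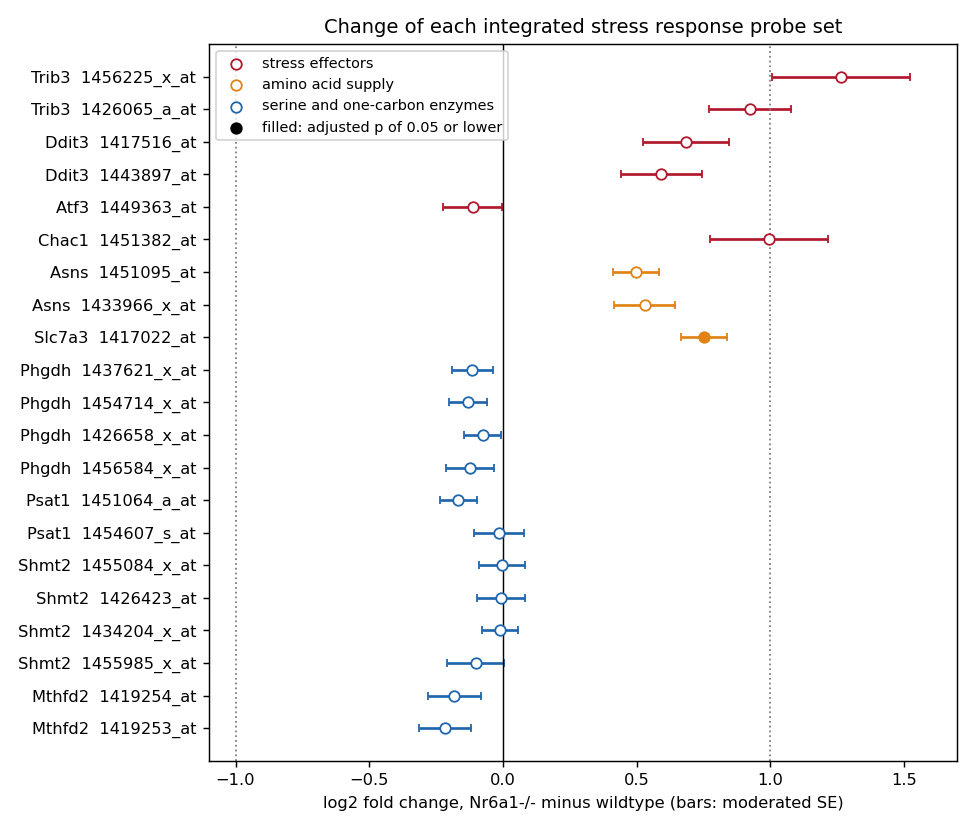
Nr6a1-/- minus wildtype on the log2 scale (horizontal axis, bars are the moderated SE, n = 2 embryos per genotype) of the 21 probe sets (rows), coloured by role, with dotted lines at 2-fold. Slc7a3 at 0.75 is the only filled point, the 12 probe sets of serine and one-carbon enzymes lie at or below 0, and Trib3 at 1.26 is past 2-fold without passing the adjusted p.

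Serine and one-carbon enzymes are also Atf4 target genes in many cells, and their 12 probe sets all lay below wildtype, by small amounts. With all 4 arrays and the constant prior none was at an unadjusted p under 0.05, but 3 were with an intensity trend, 2 without mutant replicate 1, and 1 each with dim probe sets left out and with median centring. In none of these settings did one pass the adjusted p of 0.05. Both mutants were below both wildtype embryos in 7 of the 12, against 27.3% of all probe sets. These 7 belong to Phgdh, Psat1 and Mthfd2 and are not independent. By the brightest probe set this held for 3 of the 4 genes, against 30.4% of all genes. Phgdh, the first enzyme of serine synthesis from glucose, read 12.91 and 12.80 in Nr6a1-/- embryos, against 12.94 and 13.00 in wildtype, by its brightest probe set (log2 fold change -0.12 ± 0.08, adjusted p = 0.470). The other 3 Phgdh probe sets stood at -0.13, -0.076 and -0.12. Psat1, the transaminase of the next step, read 12.64 and 12.60 in mutants, against 12.80 and 12.78 in wildtype (log2 fold change -0.17 ± 0.07, adjusted p = 0.261, or 0.0581 with an intensity trend). The 4 embryos were close together, and the other Psat1 probe set stood at -0.015 with overlapping genotypes.

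Shmt2, the mitochondrial enzyme that takes a one-carbon unit from serine, was the member nearest to 0. It read 11.33 and 11.16 in Nr6a1-/- embryos, against 11.24 and 11.26 in wildtype (log2 fold change -0.0039 ± 0.086, adjusted p = 0.992). Its other 3 probe sets stood at -0.0064, -0.011 and -0.10, and in all 4 the genotypes overlapped. Mthfd2, which oxidises the one-carbon unit on folate in mitochondria, read 10.66 and 10.42 in mutants, against 10.75 and 10.70 in wildtype (log2 fold change -0.18 ± 0.10, adjusted p = 0.384). The other Mthfd2 probe set read 10.52 and 10.30 in mutants, against 10.61 and 10.64 in wildtype (log2 fold change -0.22 ± 0.10, adjusted p = 0.296). Both mutants were below both wildtype embryos in each probe set.

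By gene, the 3 role groups had medians of 0.84 for the 4 stress effectors (Trib3, Ddit3, Chac1 and Atf3), 0.62 for the 2 amino acid supply genes and -0.14 for the 4 serine and one-carbon enzymes. The median over the 10 genes was 0.25, against -0.010 over all 18193 genes, and 5 of 10 lay above wildtype, against 47.2% of all genes. The median therefore falls between groups of genes and describes none of them. The roles were chosen with earlier results of these data known, so the contrast between groups is a description only. Among the stress effectors, Atf3 stood at -0.11, apart from its group median. Where several probe sets read a gene they agreed in sign for all 7 such members, and the SE of single probe sets ran from 0.07 to 0.26. Affymetrix marks 9 of the 21 probe sets with an x and 1 with an s, for probes that also match other transcripts, among them the brightest of Trib3 and every Phgdh probe set.

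**Figure D3:**
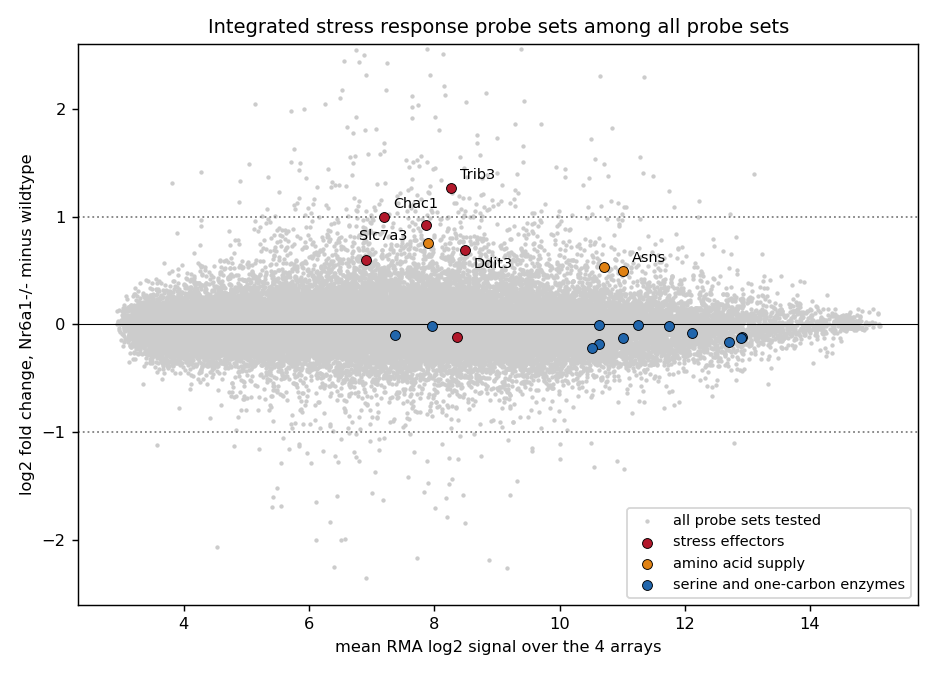
Log2 fold change (vertical axis, Nr6a1-/- minus wildtype) against the mean RMA log2 signal over the 4 arrays (horizontal axis) for the probe sets tested (grey, of which 14 lie outside the vertical range) and the 21 members (coloured by role). Dotted lines are 2-fold; Trib3, Chac1, Slc7a3, Ddit3 and Asns stand above the main cloud and the blue enzymes lie within it.

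The mutant embryos were unequal across the members. Mutant replicate 1 read higher than mutant replicate 2 in 21 of 21 probe sets, by 0.03 to 0.68, against 47.3% of all probe sets. Wildtype replicate 1 exceeded wildtype replicate 2 in 5 of 21, against 50.2%. Probe sets of the same gene are not independent. By brightest probe set, mutant replicate 1 was above mutant replicate 2 in 10 of 10 genes, against 8699 of all 18193. The gap was 0.68 for Chac1, 0.65 for the brightest Trib3 probe set and 0.45 for that of Ddit3, but 0.08 for Asns and 0.17 for Slc7a3. The size of the difference from wildtype in the stress effectors therefore rested on mutant replicate 1 more than that of the amino acid supply genes did. Trib3 was 1.59 above the wildtype mean in mutant replicate 1 and 0.94 above it in mutant replicate 2, and Ddit3 was 0.91 and 0.46 above it. All 5 genes kept their direction with any 1 array left out, which follows from the lack of overlap between the genotypes.

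**Figure D4:**
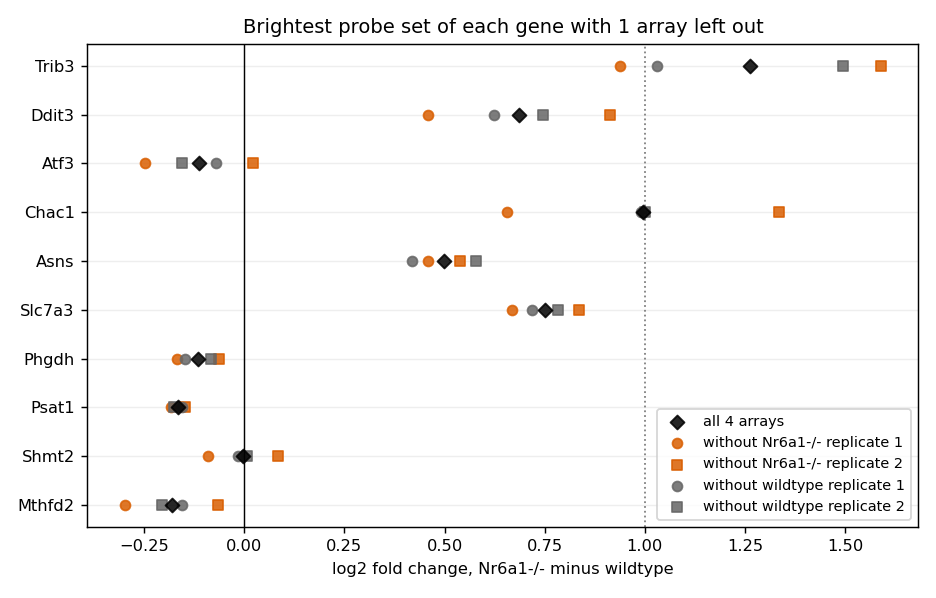
Nr6a1-/- minus wildtype on the log2 scale (horizontal axis) for the brightest probe set of each gene (rows) with all 4 arrays (black) and with 1 array left out (orange for a mutant, grey for a wildtype embryo; no error is drawn). Trib3 spans 0.94 to 1.59 and Chac1 0.65 to 1.33, while Slc7a3 spans 0.67 to 0.83 and Shmt2 crosses 0.

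Genes upstream of the members lay mostly below wildtype by small amounts. Of 15 measured genes for eIF2 kinases, eIF2, its exchange factor eIF2B and its phosphatase, 13 lay below wildtype (median -0.12) with 0 called, against 0.544% of all genes, and 0 passing the adjusted p of 0.05, against 1.4%. Those with the smallest p were Impact, an inhibitor of the kinase Gcn2, at -0.34 ± 0.07 (adjusted p = 0.108), the eIF2B subunit gene Eif2b3 at -0.25 and the ER-resident kinase gene Eif2ak3 (Perk) at -0.27. None of the 6 transcription factor genes of the response passed (median 0.086), against 1.4% of all genes, a share at which 6 genes would hold about none. Cebpb stood at 0.56 ± 0.12 (adjusted p = 0.0986), Nfe2l1 at -0.30 and Cebpg at -0.23. Atf4 itself, named after its values were seen, read 12.42 and 12.30 in Nr6a1-/- embryos, against 12.20 and 12.28 in wildtype (log2 fold change 0.13 ± 0.08, adjusted p = 0.450). A change in Atf4 protein is not measured by these arrays.

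Other Atf4 target genes lay mostly above wildtype, with 1 passing. Of 19 measured, 14 were above (list median 0.23), against 47.2% of all genes. Both mutants exceeded both wildtype embryos in 14 of the 19, against 26.2% of all genes, and were below both in 4, against 30.4%. Among all genes 0.544% were called and 1.4% passed the adjusted p of 0.05. Ddit4, an inhibitor of mTORC1 that hypoxia and p53 also induce, read 12.50 and 12.50 in mutants, against 9.97 and 10.46 in wildtype, and was the only one called (log2 fold change 2.29 ± 0.17, adjusted p = 0.0174). The cell death genes Pmaip1 and Bbc3, which p53 also induces, stood at 1.07 ± 0.14 (adjusted p = 0.0507) and 0.36 ± 0.07 (adjusted p = 0.0874).

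Neighbouring genes of amino acid use lay on both sides of wildtype. Of 14 further enzymes of serine, proline and one-carbon metabolism, 6 lay above and 8 below wildtype (median -0.012), with the folate enzyme gene Aldh1l1 at 0.80 ± 0.13 (adjusted p = 0.0678), the glycine cleavage gene Gldc at -0.50 ± 0.11 (adjusted p = 0.103) and the mitochondrial folate carrier gene Slc25a32 at -0.43 ± 0.12 (adjusted p = 0.148). Of 18 other amino acid transporters, 12 lay above wildtype (median 0.11), with Slc7a8 at -0.61 ± 0.10 (adjusted p = 0.0656), Slc36a1 at 0.33 and Slc1a5 at 0.30. Of these 14 and 18 genes 0 passed the adjusted p of 0.05, against 1.4% of all genes, a share at which lists of this size would hold about none. With the probe set of lowest p for each gene the medians were -0.057 for the enzymes and 0.17 for the transporters.

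Aminoacyl-tRNA synthetases, of which many are Atf4 target genes, lay mostly on the other side. Of 19 measured cytosolic synthetase genes, 15 were below wildtype (median -0.13). Both mutants were below both wildtype embryos in 15 of the 19, against 30.4% of all genes, and above both in the other 4, against 26.2%. Lars at -0.30 ± 0.07 (adjusted p = 0.108), Iars at -0.32 ± 0.07 (adjusted p = 0.111) and Wars at -0.32 ± 0.08 (adjusted p = 0.127) had the smallest p. Of 21 genes for ER chaperones and unfolded protein sensors, which report the other arms of the ER stress response, 15 lay below wildtype (median -0.14), with Dnajb11 at -0.36 ± 0.08 (adjusted p = 0.107), Creld2 at -0.29 and Dnajc3 at -0.27. Both lists held 0 genes at an adjusted p of 0.05, which is near the 1.4% of all genes for lists of this size.

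**Figure D5:**
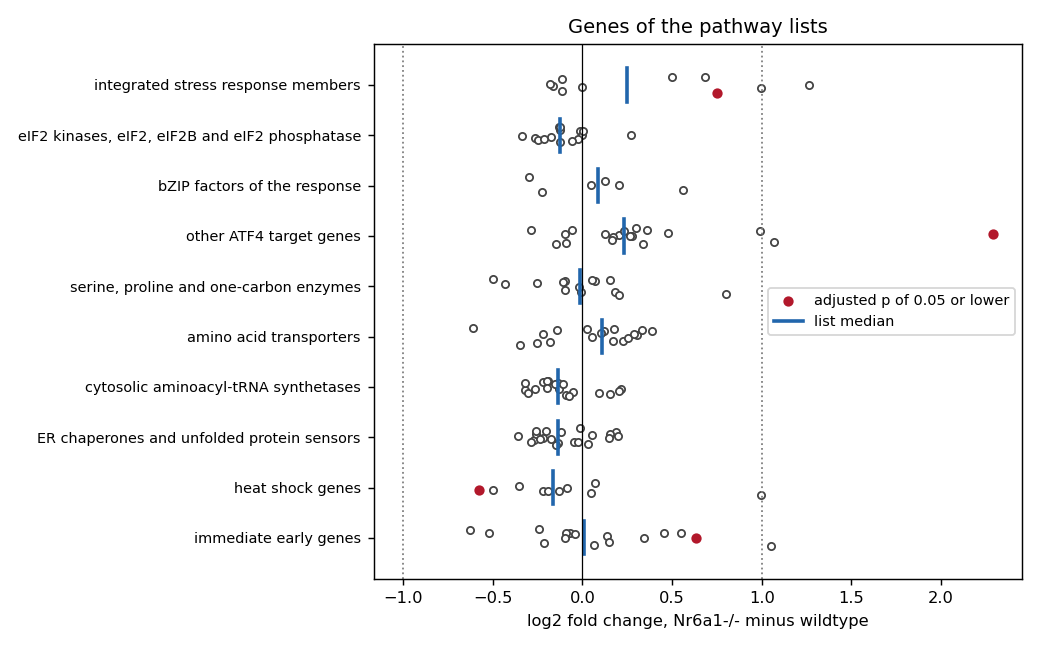
Difference on the log2 scale between Nr6a1-/- and wildtype (horizontal axis) for the genes measured (points, each by its brightest probe set, with vertical scatter for legibility) of the pathway lists (rows), with list medians as blue bars, filled red points where the adjusted p passed 0.05 and dotted lines at 2-fold. Ddit4 at 2.29 stands alone among other Atf4 targets, and the median of the synthetases is -0.13.

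Several features of the whole arrays are set beside these values, and in some of them the genotypes overlapped. The targeted gene does not check the labels here, since its 5 probe sets cannot be placed inside or outside the deletion; the mutant mean exceeded the wildtype mean by 0.05 to 0.56 in each, with 0 at an adjusted p of 0.05. Control probe sets for 18S ribosomal RNA read 10.83 and 10.74 in Nr6a1-/- embryos, against 9.45 and 9.99 in wildtype. For these the genotypes did not overlap, and the mutant mean was 1.06 higher. Control probe sets for poly-A RNA spikes read 9.66 and 9.59 in mutants, against 8.96 and 9.61 in wildtype. Wildtype replicate 1, the only female embryo, was the lowest array in both checks. It was also the lowest for every probe set of Trib3, Ddit3, Chac1, Asns and Slc7a3. Without it the log2 fold changes of their brightest probe sets were 1.03, 0.62, 0.99, 0.42 and 0.72. All 9 measured primitive erythroid markers lay above wildtype (median 0.41, Nfe2 at 0.90 with adjusted p = 0.0603, summed log2 signal 16.64 to 16.71 in mutants and 16.52 to 16.57 in wildtype), as did 8 of 10 heart muscle markers (median 0.36, 15.56 to 15.64 in mutants and 15.20 to 15.38 in wildtype), while Nppa of the same list was called lower at -1.84 (adjusted p = 0.0338). Of 9 yolk sac endoderm markers, 7 lay below wildtype (median -0.16, Hnf4a at -0.47 with adjusted p = 0.0824, 16.57 to 16.75 in mutants and 16.73 to 16.87 in wildtype). Of 7 trophoblast and decidua markers 4 lay above it (median 0.10, 11.82 in both mutants and 10.99 to 11.12 in wildtype, Plac1 at 0.96 with adjusted p = 0.0378). The 7 measured markers of embryonic axis and germ layers had a median of -0.066, with Tbx6 at 0.71 (adjusted p = 0.0535), and were read in every array (summed log2 signal 12.80 to 12.89 in mutants and 12.87 to 12.96 in wildtype). The part of RNA quality, of embryo sex and of tissue make-up in the members' values was not tested. In whole embryos fewer cells of a type and less RNA per cell cannot be told apart.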

How the data were processed

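RNA of each whole embryo was hybridised to an Affymetrix whole-genome mouse expression array, and the authors deposited RMA log2 values (background correction, quantile normalisation and summary over probes). Which RMA version was used is not given in the sources used here. Its quantile step takes out shifts shared by most transcripts, and changes of dim probe sets are understated. Of 45101 probe sets, 64 controls were left out. Symbols came from the platform annotation, and 77.6% of the tested probe sets had a single one; those with several or none were not named. Symbols were checked against RefSeq by Entrez identifier (99.4% matched, 0 changed).

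A linear model with a genotype term was fitted in R 4.3.3 (limma 3.58.1, lmFit then eBayes), and p-values were adjusted by Benjamini-Hochberg over 45037 probe sets. Fold changes are Nr6a1-/- minus wildtype, the moderated SE borrows spread from other probe sets, and the number of arrays limits the precision. Replicates were taken as separate embryos from the methods. The procedure was tested on simulated data.

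The members, roles and lists were chosen with earlier results of these data known, so no list was tested. Named were every member probe set and, of each other pathway list, the genes called, those at an adjusted p of 0.05, and further ones by smallest p up to 3, and of each marker list the gene with the smallest p. Lists covered eIF2 control, transcription factors, Atf4 targets, amino acid enzymes and transporters, synthetases, ER chaperones, heat shock and immediate early genes, and markers of embryo, erythroid, yolk sac, trophoblast and heart tissue. A gene was represented by its brightest probe set. The alternatives tried were leaving out each array, a block for replicate number, dim probe sets left out, repeated quantile normalisation, median centring, an intensity trend, robust eBayes, no fold threshold, other summaries of a gene's probe sets and, chosen after seeing the data, probe sets without an x or s suffix.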

Additional observations from a re-analysis of the deposited data

How the results depend on the processing

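Of the 21 probe sets, 0 were called lower in any setting, and 0 were called higher with all thresholds, against 1 with no fold threshold (Slc7a3), 1 with dim probe sets left out and 1 with an intensity trend (Trib3 in both). With any 1 array left out 0 were called in either direction, from fewer samples by construction, and 7 or 8 of the 21 were higher at an unadjusted p under 0.05 in limma, with 2 lower without mutant replicate 1 and 0 lower without each other array. Among all probe sets, 7 were called higher and 2 lower without wildtype replicate 2, and 0 without each other array. Slc7a3 lost its adjusted p of 0.05 in each of these fits. With the replicate number as a block 0 members passed (Slc7a3 adjusted p = 0.177), and of all probe sets 0 were called, against 137 higher and 35 lower without it (8358 against 9046 at an unadjusted p under 0.05). Deviations of embryos with equal numbers had a correlation of 0.058, so the number was taken as a name only.

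The median over the 10 genes was 0.25, with 0.18 as its lowest value (mutant replicate 1 left out) and 0.31 as its highest (mutant replicate 2 left out). It was 0.50 over the 9 genes with a probe set lacking an x or s suffix, which leaves out Phgdh. Values near 0 changed sign in some settings, and the cause was not tested. Without 1 array, Atf3 ran from -0.25 to 0.022, the second Psat1 probe set from -0.11 to 0.081 and the 4 Shmt2 probe sets from -0.092 to 0.084, -0.087 to 0.074, -0.025 to 0.0040 and -0.21 to 0.0087. Without wildtype replicate 1 that Psat1 probe set stood at 0.032. Repeated quantile normalisation gave 0.018 and 0.0075 for the brightest Shmt2 probe sets. The heat shock median was -0.23 when probe sets were averaged by gene and -0.26 with the one of lowest p, against -0.16. The immediate early median was -0.076 when probe sets were averaged by gene and -0.079 when the one of lowest p was taken, both under 0 against 0.011.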

Other observations

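Heat shock genes, which answer unfolded protein in the cytosol, lay mostly below wildtype. Of 10 measured, 7 were below (list median -0.16, or -0.26 with each gene's probe set of lowest p). Both mutants were below both wildtype embryos in 7 of the 10, against 30.4% of all genes, and above both in 2, against 26.2%. Of the 10, 1 passed the adjusted p of 0.05, against 1.4% of all genes. Hsph1, a partner of Hsp70 chaperones, read 12.11 and 12.18 in Nr6a1-/- embryos, against 12.76 and 12.69 in wildtype, and passed without reaching 2-fold (log2 fold change -0.58 ± 0.07, limma adjusted p = 0.0483). Hspa1b stood at -0.50 (adjusted p = 0.0692). The small heat shock gene Hspb1, also a gene of muscle, went the other way with 12.78 and 12.64 in mutants and 11.47 and 11.97 in wildtype (log2 fold change 0.99 ± 0.17, adjusted p = 0.0807).

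Immediate early genes, which respond within minutes to stimuli including handling of tissue, had 8 of 16 above wildtype, with a median of 0.011. The median turned below 0 under other summaries of a gene's probe sets. Of the 16 genes, 0 were called, against 0.544% of all genes, and 1 passed the adjusted p of 0.05, against 1.4%. Btg2, which p53 also induces, read 9.84 and 9.84 in Nr6a1-/- embryos, against 9.15 and 9.26 in wildtype (log2 fold change 0.64 ± 0.07, adjusted p = 0.0438), with its other probe set at 0.22. Jun stood at 0.55 (adjusted p = 0.0620) and Klf6 at 0.46 (adjusted p = 0.0815).

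The annotation gave 2 further probe sets to Phgdh together with the predicted genes Gm8096 and Gm6756, and these fall outside the members. They stood at -0.12 and -0.10, close to the 4 probe sets of Phgdh alone.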
